A study of Mus musculus with 6 samples.

Results

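Day 0 only regions inside genes are stretches of open chromatin that were called at the start of brown fat cell differentiation, missed a day later, and lie in the body of a protein-coding gene. Accessible DNA was profiled by ATAC-seq, an assay that uses a transposase to tag open chromatin with adapters, at day 1 and day 0 of differentiation of mouse brown pre-adipocytes, with 3 libraries per day. All 6 libraries carry the treatment label WT and the cell line label BAT, and neither the induction medium nor the origin of the line is given in the sources used here. The series concerns deletion of RUNX1 or RUNX2, and libraries with a deletion are not analysed here. Nothing in the labels tells whether the replicates are separate cultures, and the p-values then reflect the spread of these libraries alone, which may be a technical one.

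Overlapping peaks of the 6 lists, sharing 1 bp or more, were joined to give 68913 regions on chromosomes 1 to 19, X and Y of mm10. A region was kept when all 3 day 0 lists and none of the 3 day 1 lists held a peak in it, its midpoint lay inside a coding gene, and that midpoint was more than 1 kb from every coding gene end. Of all regions, 5836 met the rule, and they are called members here. They make up 48.4% of the 12066 day 0 only regions, of which 5470 lay outside genes and 760 at gene ends. Since these calls chose the members, their absence at day 1 and their day 0 peak values are given as a description, with no test.

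Open sites inside genes include enhancers, which bind transcription factors and act on promoters at a distance, and internal promoters that start shorter transcripts. In precursor cells of fat, enhancers are bound by factors such as AP-1, TEAD, RUNX and EBF, and differentiation recruits C/EBP proteins and PPARγ to many sites. ATAC-seq on bulk cells cannot tell a site that is open in fewer cells from one that is less open in each cell.

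The genome letters of most members were not used here. Sequence was at hand for the 300 bases around annotated transcription starts, from 250 bases before to 50 after the start, taken from RefSeq on the matching assembly GRCm38.p6. The reference held 32851 such windows, and those at members number 115, with each overlapping member counted once. The 5 windows below overlapped a member by at least 200 bases and belong to starts inside the host gene. Their choice was made with the values in view, as the 2 strongest members without and the 3 strongest with an AP-1 motif among genes with an established symbol. Capitals mark matches, on either strand, to AP-1 (TGANTCA), RUNX (TGTGGT), TEAD (GGAATG) and SP (GGGCGG).

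Rufy3 chr5:88583263-88583562 (plus strand): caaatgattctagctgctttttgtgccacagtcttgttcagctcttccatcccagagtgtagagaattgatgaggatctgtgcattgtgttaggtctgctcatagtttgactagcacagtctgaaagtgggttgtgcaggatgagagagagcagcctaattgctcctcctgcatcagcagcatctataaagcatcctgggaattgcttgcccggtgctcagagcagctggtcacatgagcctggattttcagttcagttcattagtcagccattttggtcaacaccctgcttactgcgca
Arap1 chr7:101394138-101394437 (plus strand): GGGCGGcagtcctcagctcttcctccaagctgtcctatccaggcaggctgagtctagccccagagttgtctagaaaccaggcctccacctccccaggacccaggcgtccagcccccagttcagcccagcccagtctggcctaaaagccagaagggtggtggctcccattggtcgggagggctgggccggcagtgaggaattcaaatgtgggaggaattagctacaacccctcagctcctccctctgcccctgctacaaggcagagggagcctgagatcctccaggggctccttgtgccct
Msh4 chr3:153904842-153905141 (minus strand): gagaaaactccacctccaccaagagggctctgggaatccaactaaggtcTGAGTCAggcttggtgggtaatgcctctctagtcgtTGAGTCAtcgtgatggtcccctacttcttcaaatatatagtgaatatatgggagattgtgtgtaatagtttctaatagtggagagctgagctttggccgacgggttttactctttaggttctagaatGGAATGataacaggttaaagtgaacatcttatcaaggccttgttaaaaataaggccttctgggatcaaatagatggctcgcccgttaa
Sh3kbp1 chrX:159840218-159840517 (plus strand): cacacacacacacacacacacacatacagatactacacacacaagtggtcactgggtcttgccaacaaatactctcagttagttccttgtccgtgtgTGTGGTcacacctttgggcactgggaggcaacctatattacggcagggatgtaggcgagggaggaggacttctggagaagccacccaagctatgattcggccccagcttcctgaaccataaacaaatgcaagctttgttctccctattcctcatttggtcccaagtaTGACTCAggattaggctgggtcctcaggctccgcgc
Smim14 chr5:65484012-65484311 (minus strand): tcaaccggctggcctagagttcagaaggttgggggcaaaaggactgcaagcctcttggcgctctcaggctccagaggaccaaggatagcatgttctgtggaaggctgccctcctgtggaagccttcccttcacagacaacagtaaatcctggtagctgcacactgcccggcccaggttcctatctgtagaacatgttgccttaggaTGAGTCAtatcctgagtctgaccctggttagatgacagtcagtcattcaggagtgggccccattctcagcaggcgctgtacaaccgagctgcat

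The Rufy3 window held none of these motifs, and its member had a fold enrichment of 15.4, 16.6 and 9.92 in day 0 replicates 1, 2 and 3. Fold enrichment is the ratio of the fragment pileup at the summit to the local background, as the authors' peak caller gave it. Rufy3 encodes an adaptor protein that takes part in neuronal polarity and axon growth. The Arap1 member had 10.6, 12.7 and 7.29. Msh4, needed for meiotic recombination, carried 2 AP-1 matches and 1 TEAD match in its window, and its member had 9.98, 10.1 and 7.32. Sh3kbp1, an adaptor in receptor endocytosis, had 1 AP-1 and 1 RUNX match, and Smim14 had 1 AP-1 match. None of these 5 members had a peak in any day 1 list, as the rule requires.

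For contrast, the windows of the 2 strongest regions of the same kind that were called in all 6 lists are printed with the same motifs in capitals.

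Zfp959 chr17:55891843-55892142 (plus strand): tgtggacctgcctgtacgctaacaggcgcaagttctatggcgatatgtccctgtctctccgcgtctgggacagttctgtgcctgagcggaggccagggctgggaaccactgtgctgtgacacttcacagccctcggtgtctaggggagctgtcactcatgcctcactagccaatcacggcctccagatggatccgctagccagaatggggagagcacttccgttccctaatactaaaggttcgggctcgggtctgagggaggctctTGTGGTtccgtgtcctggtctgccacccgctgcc
Fgd4 chr16:16560170-16560469 (minus strand): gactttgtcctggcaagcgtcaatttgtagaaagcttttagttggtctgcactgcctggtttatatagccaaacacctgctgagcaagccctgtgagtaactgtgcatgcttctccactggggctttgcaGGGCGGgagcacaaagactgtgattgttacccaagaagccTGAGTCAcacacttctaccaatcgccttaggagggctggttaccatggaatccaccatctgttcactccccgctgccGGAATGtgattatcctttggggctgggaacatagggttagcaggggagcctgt

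The Zfp959 region had fold enrichments of 14.4, 17.5 and 13.6 in the day 1 libraries, against 19.3, 20.9 and 21.6 in the day 0 libraries. Fgd4 encodes an activator of the GTPase Cdc42. Its region had 13.3, 13.0 and 8.96 in the day 1 libraries, against 22.1, 20.2 and 18.7 in the day 0 libraries. The Fgd4 window also held an AP-1 match, so the motif occurred at both kinds of region. Fold enrichment varies with depth, so its level is not compared between the days.

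Over all windows, AP-1 matched 19 of the 115 windows at members (16.5%, exact 95% interval 10.3 to 24.6), 29 of 344 at regions kept in 1 or 2 day 1 lists (8.43%, 5.72 to 11.9), and 43 of 619 at regions in all 6 lists (6.95%, 5.07 to 9.24). Of all 32851 windows, 7.81% held it. SP matched 33.9% of windows at members (25.3 to 43.3), 66.4% at regions in all 6 lists (62.5 to 70.1) and 35.7% of all windows. RUNX matched 21.7%, 12.1% and 16.8%, and TEAD 23 of 115 windows, 12.8% and 14.7%, in that order of sets. EBF (CCCNNGGG) went the other way, with 12 of 115 windows at members (10.4%, 5.51 to 17.5), 22.7% at regions kept in 1 or 2 day 1 lists, 21.2% at regions in all 6 lists and 13.7% of all windows. For the others of the 11 motifs searched, the shares at members, at regions in all 6 lists and of all windows were 13.0%, 8.72% and 10.8% for C/EBP (TTGCNNAA), 52.2%, 55.4% and 46.7% for the NF1 half-site (TTGGC), and 75.7%, 59.5% and 72.3% for the E-box (CANNTG). The NF1 full site, which contains 2 half-sites, the glucocorticoid receptor element (GRE) and the CTCF core matched 0 windows at members, and 12, 156 and 422 of all 32851 windows. Median GC content was 53.7% at members, 62.0% at regions in all 6 lists and 52.7% over all windows, and the median number of CpG dinucleotides was 7, 21 and 7. Windows at members thus had the base composition of the average start window, and those of regions in all 6 lists were richer in GC. Base composition moves with the motif shares, and its part in them was not tested. A member that overlaps several windows, as in Nfe2l1 and Bri3, was counted once among the 115, whereas all 32851 windows were counted singly. Windows may still not be independent, and the intervals do not allow for it. Some windows share as few as 11 bases with their member, so a match can lie outside the member.

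Members that coincide with annotated starts were few. Where the host gene was in the start table, 108 of 4507 members (2.40%, 1.97 to 2.89) overlapped a start window, against 338 of 2660 regions kept in 1 or 2 day 1 lists (12.7%, 11.5 to 14.0) and 606 of 1695 regions in all 6 lists (35.8%, 33.5 to 38.1). Nearly all members therefore lay away from the annotated starts in that table. Exon, intron and UTR annotation was not used here.

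Per library, the same measure holds the members' own peaks on the day 0 side alone, where they make up 25.2% to 37.6% of peaks inside genes. Among peaks inside genes, start windows were overlapped by 12.8%, 11.8% and 17.9% in day 1 replicates 1, 2 and 3, against 5.79%, 7.02% and 7.02% in day 0 replicates 1, 2 and 3. The means were 14.2 ± 3.27% at day 1 and 6.61 ± 0.709% at day 0 (SD, n = 3 each), and the day 0 mean was 9.04 ± 1.67% without the members' peaks. Every day 1 list was shorter than every day 0 list, so the comparison was repeated on the 12556 strongest peaks of each library by q, called equal lists below. There the day 1 mean was 18.7 ± 1.33% and the day 0 mean 13.8 ± 1.07%, or 19.7 ± 1.32% without the members' peaks, so the direction turned (SD over 3 libraries of each day). Taking those peaks out removes day 0 peaks alone, by construction, so neither version is independent of the rule and no test is given. This measure was added after the data were seen.

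Whole-series facts touch every result here. Day 1 libraries held 4919755 to 7302457 fragments and 12556 to 23274 peaks, against 8127635 to 11011889 fragments and 39211 to 55511 peaks at day 0. Day 1 replicate 3 stood apart, with the shortest list of all although it was the deepest day 1 library. Peaks within 1 kb of the ends of 8 pre-adipocyte marker genes were seen at 2, 3 and 1 of the genes in the day 1 libraries, against 6, 4 and 3 in the day 0 libraries. Of the 8 genes, Ly6a, Ebf2 and Pdgfrb had such a peak in all 3 day 0 lists. Dlk1, Cd34, Pparg and Cebpb did not, and Pdgfra had none in any list. Between 0 and 3 genes of each endothelial, immune, myogenic, bone and neuronal list had such a peak in the day 1 libraries, against 1 to 7 in the day 0 libraries. Those with one in all 3 day 0 lists were Kdr and Flt1 (endothelial), Spi1 and Cd68 (immune), Pax3 (myogenic), Sox6 and Sox9 (bone) and Snap25 (neuronal). The part of depth and of other cell types in the calls was not tested with these counts.

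Of the 30123 regions inside genes, the members are 19.4%, against 21.0% of 26061 regions outside genes and 5.97% of 12729 at gene ends. The mirror class, called in 3 day 1 and 0 day 0 lists, held 233 regions inside genes (0.773%). Among the 11373 regions inside genes that all 3 day 0 lists held, 51.3% had no day 1 peak and are the members, 29.9% kept one in 1 or 2 day 1 lists and 18.8% in all 3. The share without a day 1 peak was 56.4% of 9707 such regions outside genes and 8.84% of 8600 at gene ends. Gene bodies thus resembled intergenic DNA in this respect, and gene ends stood apart from both.

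Per library, 34.4%, 35.3% and 28.7% of peaks lay inside genes in day 1 replicates 1, 2 and 3, against 41.9%, 40.4% and 40.2% in day 0 replicates 1, 2 and 3. The means were 32.8 ± 3.56% at day 1 and 40.9 ± 0.951% at day 0 (SD, n = 3 each), a difference of -8.04 percentage points with no overlap between the days (two-sided exact permutation p = 0.1, the smallest that 3 libraries against 3 can give). In equal lists the means were 29.0 ± 0.816% and 32.5 ± 0.489%, a difference of -3.50 points (exact permutation p = 0.1). Without day 1 replicate 3, equal lists of 20069 peaks gave -1.49 points. The members' own peaks, all of them day 0 peaks inside genes, enter these shares, so the rule sets part of the difference and of these p-values. Without them the difference was 1.03 points (day 1 mean 32.8 ± 3.56%, day 0 mean 31.8 ± 2.91%, exact permutation p = 0.9). In equal lists without them it was 4.40 points (29.0 ± 0.816% and 24.6 ± 0.177%, SD over 3 libraries of each day, exact permutation p = 0.1). Leaving them out removes day 0 peaks alone, so neither version is independent of the rule.

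**Figure D1:**
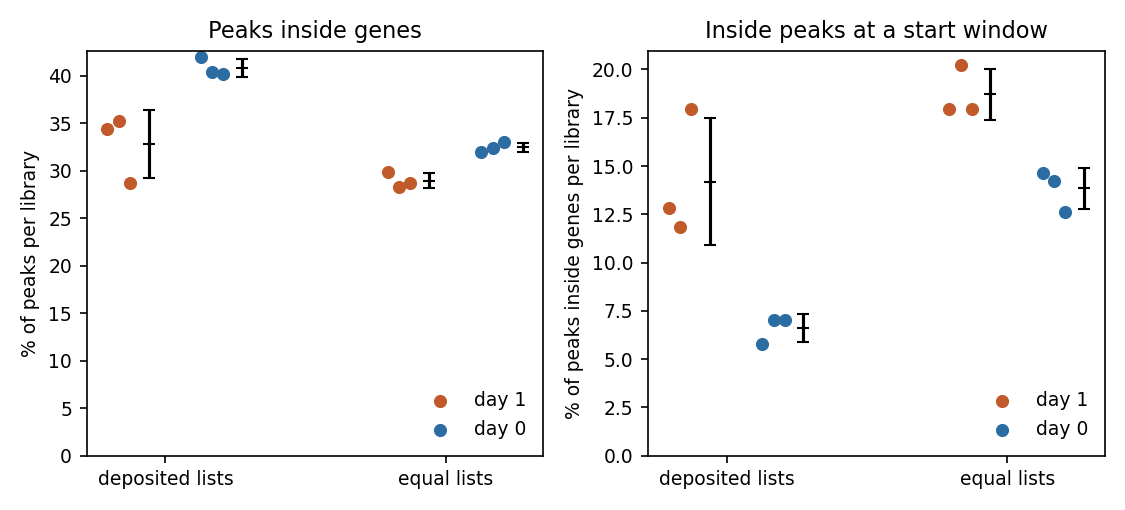
Left, the percentage of each library's peaks that lay inside genes, and right, the percentage of those peaks that overlapped an annotated start window, for day 1 (orange) and day 0 (blue) libraries in the deposited lists and in equal lists of 12556 peaks; points are libraries, bars the mean ± SD of 3. In all 4 comparisons the days do not overlap, with day 1 lower on the left (32.8% and 40.9% in deposited lists) and higher on the right (14.2% and 6.61%). Members' own peaks, which are in day 0 lists alone by the rule, are included; without them the differences are 1.03 and 5.16 points in deposited lists, and 4.40 and -0.999 points in equal lists.

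To measure the calls in libraries that did not choose the regions, the rule was applied to 2 libraries of each day and the regions were looked up in the library left out of each day. Over the 9 pairs of left-out libraries, 1.86% to 15.5% (median 9.47%) of 6385 to 9504 regions had a peak in the left-out day 1 library, against 71.9% to 94.4% (median 79.995%) in the left-out day 0 library. The lowest day 1 shares, 1.86% to 2.02%, were those of day 1 replicate 3, and the highest, 14.1% to 15.5%, those of day 1 replicate 2. These libraries had the shortest and the longest day 1 list, so the shares move with list length. In equal lists the shares were 6.30% to 10.7% (median 7.70%) in the day 1 library and 81.2% to 82.4% (median 81.6%) in the day 0 library, over 1382 to 1453 regions. The pairs share libraries and are not independent, and no share for regions that the rule did not choose is set beside them.

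**Figure D2:**
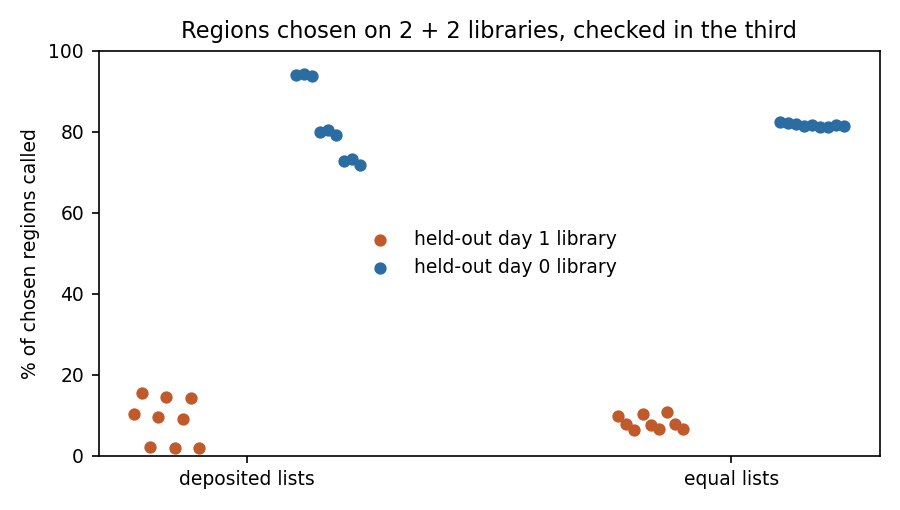
The percentage of regions chosen by the rule on 2 libraries per day that had a peak in the left-out day 1 library (orange) and the left-out day 0 library (blue), for deposited and equal lists; each point is 1 of 9 pairs of left-out libraries. Day 1 points lie at or below 15.5% and day 0 points at or above 71.9%.

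Members were weaker and narrower than regions that stayed called. Their median fold enrichments in day 0 replicates 1, 2 and 3 were 8.43, 7.60 and 7.01, against 9.54, 8.47 and 7.93 for regions kept in 1 or 2 day 1 lists and 11.5, 10.5 and 9.86 for regions in all 6 lists. Median summit heights were 19, 15 and 12 fragments in members, against 39, 30 and 23 in regions in all 6 lists. Members had a median width of 387.5 bp, against 634 bp. Width spans all merged peaks, so the merging itself makes a region called in more lists wider in part. Strength thus fell in step with the number of day 1 lists that kept a region. None of the 3 day 0 peaks ranked among the 12556 strongest of its library for 3808 members (65.3%), and all 3 did for 697 (11.9%).

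The 3 day 0 libraries placed a member's summit close together, which the rule favours, since their peaks must join in the same region. The median spread of the 3 summits was 54 bp, and it was 50 bp or less in 2675 members (45.8%, exact 95% interval 44.6 to 47.1), against 47.4% (45.3 to 49.5) of regions in all 6 lists. The nearest day 1 peak was a median of 14.5 kb from the member. A day 1 peak lay within 1 kb of 320 members (5.48%). For day 0 only regions outside genes the median was 18.4 kb and the share 3.75%. The rule bars a day 1 peak that overlaps the region, in both sets.

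Since the day 1 libraries were shallower, day 0 summit heights were also scaled to their depth. When heights were scaled by fragment totals and averaged over the 3 day 0 libraries, 4545 members (77.9%) came to at least the height that 90% of called peaks reach, in each of the 3 day 1 libraries. When they were scaled by the median height ratio in regions inside genes called in all 6 lists, 2529 members (43.3%) did. That smaller number rests on day 1 replicate 3, since 83.1%, 93.6% and 43.3% of members did so in day 1 replicates 1, 2 and 3. At the median height of called peaks the counts were 1099 and 558. A peak call also depends on the local background, which the scaling does not carry over. The heights are those of regions chosen by their day 0 calls, and the part of depth was not tested with these counts.

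The share of reproducible day 0 regions with no day 1 peak was higher further from a gene end. Among regions inside genes that all 3 day 0 lists held, it was 31.1% at 1 to 2.5 kb, 43.2% at 2.5 to 5 kb, 47.6% at 5 to 10 kb, 53.6% at 10 to 25 kb, 56.2% at 25 to 50 kb, 55.5% at 50 to 100 kb and 61.9% over 100 kb. The median summit height of these regions moved with distance as well, and was 2.25 fragments per 1000000 at 1 to 2.5 kb and 1.75 over 100 kb. Regions inside genes were divided by mean day 0 height into 5 groups of equal size. In the lowest group 73.1% had no day 1 peak, and in the highest 20.7%. Both height and distance therefore move with the day 1 call.

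Regions at starts kept their day 1 peak more often at every height. Inside genes, 108 of 1052 regions with a start window (10.3%, exact 95% interval 8.50 to 12.3) had no day 1 peak, against 4399 of 7810 without one (56.3%, 55.2 to 57.4). From the lowest to the highest height group, the share was 32.9%, 22.7%, 16.2%, 5.86% and 2.63% with a start window, against 75.04%, 67.8%, 59.5%, 47.4% and 24.8% without. Gene ends gave 34.0%, 25.4%, 13.5%, 6.15% and 0.810%. In the highest group the exact 95% intervals of internal starts (1.32 to 4.65) and gene ends (0.551 to 1.15) did not overlap, and over all heights the shares were 10.3% and 8.84%. Regions are not replicates, so these intervals cover counting error only.

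**Figure D3:**
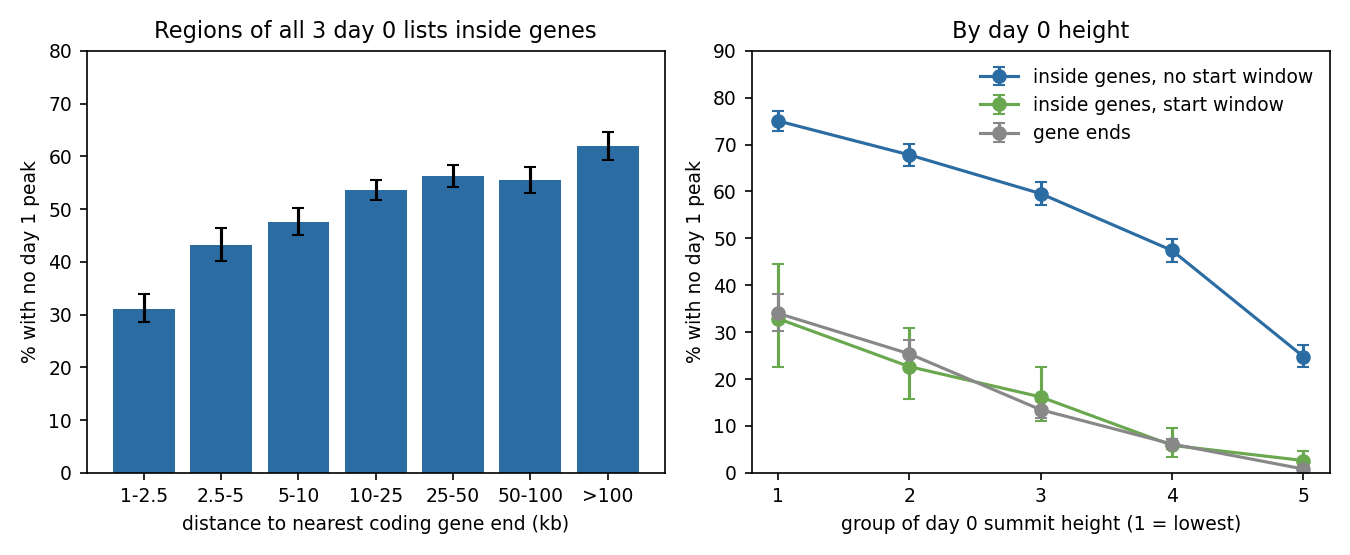
Percentage of regions held by all 3 day 0 lists that had no peak in any day 1 list, by distance to the nearest coding gene end (left, regions inside genes) and by the 5 groups of day 0 summit height per 1000000 fragments (right); error bars are exact 95% binomial intervals. The left bars range from 31.1% to 61.9%, and on the right regions without a start window (blue, 75.04% to 24.8%) lie above those with one (green, 32.9% to 2.63%) and gene ends (grey, 34.0% to 0.810%) in every group.

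Members lay further from gene ends than regions inside genes that stayed called. The median distance to a gene end was 25.03 kb (exact 95% interval 23.9 to 26.1), against 19.1 kb for regions kept in 1 or 2 day 1 lists and 12.2 kb for regions in all 6 lists. For day 0 only regions outside genes it was 34.6 kb, so the distance is not particular to members. Positions within 10% of the gene length of either end held 16.7% of the 5780 members that lie in a single gene, against 24.5% of 2110 regions in all 6 lists. The rest of the gene held members almost evenly, 20.4% to 21.3% in each of the 4 further steps towards the middle. At the 1 kb limit of the rule, the 4 nearest members lay at 1.00 to 1.01 kb in Slc7a5, Rims2, Ahnak and Clk4, with mean fold enrichments of 5.35, 8.66, 5.09 and 8.09. Just under it, at 0.992 to 1.00 kb, lay day 0 only regions of Cntnap1, Gstt2, Topors and a region shared by Nmt2 and Rpp38, and 442 day 0 only regions inside genes fell at or under the limit.

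Members were spread over the chromosomes in proportion to regions inside genes, from 17.1% on the X chromosome to 21.0% on chromosome 8, and none was on the Y chromosome. Another member lay within 50 kb of 3250 members (55.7%) and within 10 kb of 1078 (18.5%).

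Of 21883 coding genes, 3342 held a member (15.3%), against 884 in equal lists and 1433 in equal lists without day 1 replicate 3. Host genes were long, with a median length of 78.3 kb, against 13.4 kb for genes without one. The share of genes with a member was 1.40% under 10 kb, 7.74% at 10 to 25 kb, 17.2% at 25 to 50 kb, 31.8% at 50 to 100 kb, 51.6% at 100 to 200 kb, 64.6% at 200 to 400 kb and 65.2% over 400 kb. A single member was held by 2119 genes, at least 2 by 1223 and at least 5 by 177. Counts for single genes and lists are therefore set beside gene length below.

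Arhgap26, a gene of 774.7 kb, held 13 members, the highest count. Syn3, Frmd4a, Foxp1, Cacna1c and Dlgap2 held 12 each, in genes of 450.2 to 757.7 kb. Foxp1 encodes a forkhead repressor and Cacna1c a subunit of an L-type calcium channel. Phldb2, which helps anchor microtubules at adhesion sites, held 11 members in 207.4 kb, or 5.31 per 100 kb. That was the highest density among the 18 genes with at least 10 members, and 11 of its 13 reproducible day 0 regions had no day 1 peak. Cmss1, Atxn1 and Gpc6 held 11, and 8 genes held 10, of which Zmiz1 and Ccbe1 had the most members per 100 kb (4.79 and 4.26). In Ccbe1, a secreted factor of lymphatic growth, all 10 reproducible day 0 regions were members. In Dlgap2 and Atxn1 the counts were 12 of 13 and 11 of 12, against 12 of 24 in Syn3. Over all genes 51.3% of such regions were members. These genes were picked for holding the most members, which favours high shares.

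The members with the highest day 0 fold enrichment lay in 12 different genes, counting the strongest of each gene. The strongest lay in Myo5c, a myosin motor gene, at chr9:75236667-75237202, with 22.4, 22.1 and 20.8 in day 0 replicates 1, 2 and 3 (21.8 ± 0.892, SD, n = 3) and summit heights of 89, 70 and 53 fragments. A member in Olfm3 had 23.0, 20.1 and 19.1, and its nearest day 1 peak was 456.6 kb away. A member in Gpd2, the mitochondrial glycerol-3-phosphate dehydrogenase of the glycerol phosphate shuttle, had 17.9, 20.3 and 19.2. In Tln2, which encodes a talin that links integrins to actin, the member had 17.96, 21.08 and 19.11. The other 8, in Rspo2, Sbk3, C9, Vwa8, Tmem182, Liph, Ulk4 and Jmjd1c, had means from 18.8 to 19.99. All 12 had their 3 day 0 peaks among the 12556 strongest, which few members did.

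Adipogenic transcription factors carried members in 13 of 25 genes, against 7.29 from the shares of genes of like length. Pparg, the master regulator of fat cell formation, held 3 members, at 29.6, 27.3 and 9.99 kb from a gene end. The first, at chr6:115390254-115390750, had fold enrichments of 8.58, 14.0 and 5.88 in day 0 replicates 1, 2 and 3. The second, at chr6:115462783-115463444, had 14.6, 13.1 and 10.5, and the third, at chr6:115480046-115480784, had 12.1, 11.5 and 12.2. These 3 were the only regions inside Pparg that all day 0 lists held. The first was the most uneven, and the other 2 ranked among the strongest 12556 peaks in all 3 day 0 libraries. Pparg also held regions at 1.49 and 60.2 kb from its lower-coordinate end, called in 2 lists of each day. A region at 63.8 kb was called in 2 day 1 lists and 0 day 0 lists.

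Ebf1, a commitment factor of fat precursors, held 7 members among 14 reproducible day 0 regions, with means from 4.80 to 9.35. Nfia, which helps set the brown fat programme, held 5 among 14, with means from 5.19 to 11.4. Ebf2 held 2 among 6, Nfix 2 among 6, Nfib 2 among 4, Zfp423 3 among 7 and Ebf3 1 among 2. Cebpa, Cebpb and Cebpd, the C/EBP genes of early differentiation, are 1.52 to 2.64 kb long and so can hold almost no region more than 1 kb from an end. They held none. Over the list, 39.2% of 79 reproducible regions were members, against 51.3% of all such regions inside genes.

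RUNX genes, which the series is about, held few. Runx1 had 1 member among 8 reproducible day 0 regions, at chr16:92710222-92710541, with 5.84, 4.86 and 5.70 in day 0 replicates 1, 2 and 3. None of its 3 peaks ranked among the 12556 strongest, and 3 of the 8 regions were called in all 6 lists. Runx2 had 1 among 5, with 5.22, 5.36 and 4.80. Runx3 had no region at all inside the gene, and Cbfb, the common partner of RUNX proteins, had 1 region and no member. The corepressor gene Runx1t1 held 3 among 4 (means 8.02 to 10.1). With Cbfa2t2 and Cbfa2t3, 5 of 7 genes held a member, against 3.13 from gene length, and 34.8% of 23 reproducible regions were members.

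Thermogenic genes had members in 3 of 20 genes, against 3.93 from gene length. They were the coactivator genes Ppargc1b with 3 and Ppargc1a with 2, and Prdm16, a determinant of brown fat identity, with 1 among 5 reproducible regions. Ucp1, whose product uncouples respiration to make heat, contained no region. Oxidative phosphorylation genes, with a median length of 8.05 kb, had members in 0 of 22 genes (1.44 from gene length) and 3 reproducible regions. Mature adipocyte lipid genes had members in 5 of 25 (3.26), namely Gpd1, Lipe, Acsl1, Cd36 and Acaca.

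Genes of the actin cytoskeleton and cell adhesion, which shape the spread form of precursor cells, carried members in 22 of 32 genes (68.8%), against 11.9 from gene length. Tns1 and Palld, an adaptor of focal adhesions and a scaffold of actin bundles, held 9 members each, Lpp 8 and Myo10 5. The Tns1 members were of low day 0 strength, with means from 4.09 to 8.33. Of 144 reproducible regions in the list, 51.4% were members, the same share as over all genes.

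Matrix genes had members in 16 of 28 genes (8.30 from gene length), among them Ltbp2 with 5 and Col4a2, Fbn1 and Ltbp1 with 4 each. These encode binding proteins of latent TGF-beta, a basement membrane collagen and fibrillin, and 53.3% of 60 reproducible regions were members. YAP, TAZ and TEAD genes and targets, which respond to cell shape, had members in 13 of 20 (5.27). Wwtr1, which encodes TAZ, held 4 among 5 reproducible regions, the strongest with 12.5, 10.3 and 10.5 in day 0 replicates 1, 2 and 3. Vgll4, a TEAD cofactor, held 4 among 7, and Tead1 held 2 among 3. The share over that list was 57.5% of 40.

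TGF-beta and BMP genes had members in 12 of 25 (7.90), with 4 in Smad3 and 3 in Smad7, a receptor-activated effector and an inhibitor of the pathway. Wnt genes had 8 of 26 (7.04), with 3 in Rspo2, and FGF and PDGF genes 10 of 24 (6.04), with 2 in Pdgfrb, the marker of perivascular precursors. Axon guidance genes, which are long, had 17 of 26 (14.4), with 6 in Slit3. Glucocorticoid- and cAMP-responsive genes had 8 of 20 (6.68), with 7 members among 18 reproducible regions in Pde4d, which degrades cAMP. Cell cycle genes had 4 of 24 (3.27), precursor markers 5 of 21 (3.57) and AP-1 family genes 1 of 13 (0.499). In these lists the shares of reproducible regions that were members ran from 16.7% of 6 regions in AP-1 genes to 62.3% of 61 in axon guidance genes.

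Lists for other cell types also held members. Endothelial genes had 3 of 12 with a member (3.48), immune genes 2 of 11 (2.15), myogenic genes 0 of 10 (1.81), bone and cartilage genes 3 of 14 (2.93), and neuronal and glial genes 9 of 14 (6.67). Of reproducible day 0 regions, 4 of 5 were members in endothelial genes, 3 of 3 in immune, 0 of 2 in myogenic, 4 of 7 in bone and cartilage and 14 of 22 (63.6%) in neuronal and glial genes, against 51.3% over all genes. Csf1r held 2 members, Spi1 1 and Vwf 2. The list counts moved with list length. In equal lists they were 8 for actin and adhesion genes (3.81 from gene length), 5 for matrix genes (2.42), 4 for YAP, TAZ and TEAD genes (1.48), 3 for adipogenic factors (2.30) and 0 for TGF-beta and BMP genes (2.17). In equal lists without day 1 replicate 3 they were 11 (5.95), 9 (3.81), 8 (2.42), 8 (3.57) and 4 (3.56) for the same lists. These list counts were added after the data were seen. No test was made for any list, and adjacent genes can share regions.

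**Figure D4:**
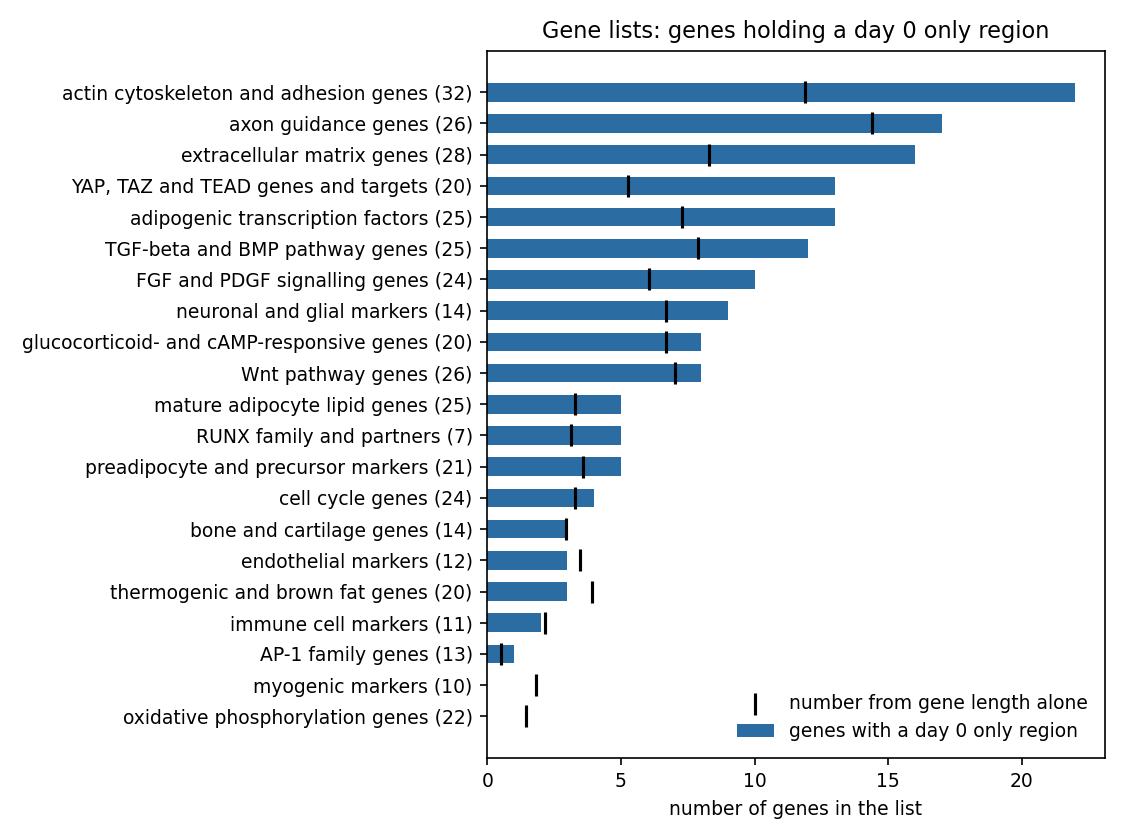
Number of genes in each list that hold at least 1 day 0 only region (bars), with the number given by the shares of all coding genes of the same length class (black ticks); list sizes are in parentheses. Actin and adhesion genes show 22 against 11.9, and oxidative phosphorylation and myogenic genes show 0.

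Ends of host genes were set beside those of other genes. Of 1880 host genes with a peak at an end in all 3 day 0 lists, 1223 (65.1%, exact 95% interval 62.8 to 67.2) had one in all 3 day 1 lists and 141 in none. Of 7635 genes without a member and with such a peak, 70.2% (69.1 to 71.2) had one in all 3 day 1 lists and 390 in none. Separately, 836 of the 3342 host genes (25.015%) had a region inside the gene called in all 6 lists, and a day 1 only region lay in 130 (3.89%). Over all 21883 coding genes the counts were 1806 (8.25%) and 228 (1.04%). Host genes had a median length of 78.3 kb, against 17.2 kb for all coding genes, and these shares do not take length into account.

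Few microRNA genes lay near members. Of 1005 hairpins in the RefSeq table, 38 lay within 5 kb of a member and 1 overlapped one. Inside coding gene spans 37 of 657 hairpins (5.63%) did so, and 5.45% of the bases of those spans lay as near, so the share is close to the background. The overlapping hairpin, Mir3092, lies in Fndc3b, and its member at chr3:27584612-27585242 had fold enrichments of 9.71, 10.1 and 9.65 in day 0 replicates 1, 2 and 3. Dnm3, a gene for a dynamin that cuts vesicles from membranes, held 9 members, and its span contains Mir199a-2 and Mir214, microRNAs common in mesenchymal cells. Mir199a-2 lay 1.78 kb from a member with 6.07, 4.06 and 5.47, and Mir214 lay 1.32 kb from one with 6.77, 3.89 and 3.88. Their mature sequences are given with the seed, bases 2 to 8, in capitals, and the 6 seeds differ from each other.

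mmu-miR-3092-5p: aGGGGAAAaugccuuucuccca
mmu-miR-3092-3p: gAAUGGGGcuguuuccccucc
mmu-miR-199a-5p: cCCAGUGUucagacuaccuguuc
mmu-miR-199a-3p: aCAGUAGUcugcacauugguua
mmu-miR-214-5p: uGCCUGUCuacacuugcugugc
mmu-miR-214-3p: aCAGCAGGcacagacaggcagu

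**Figure D5:**
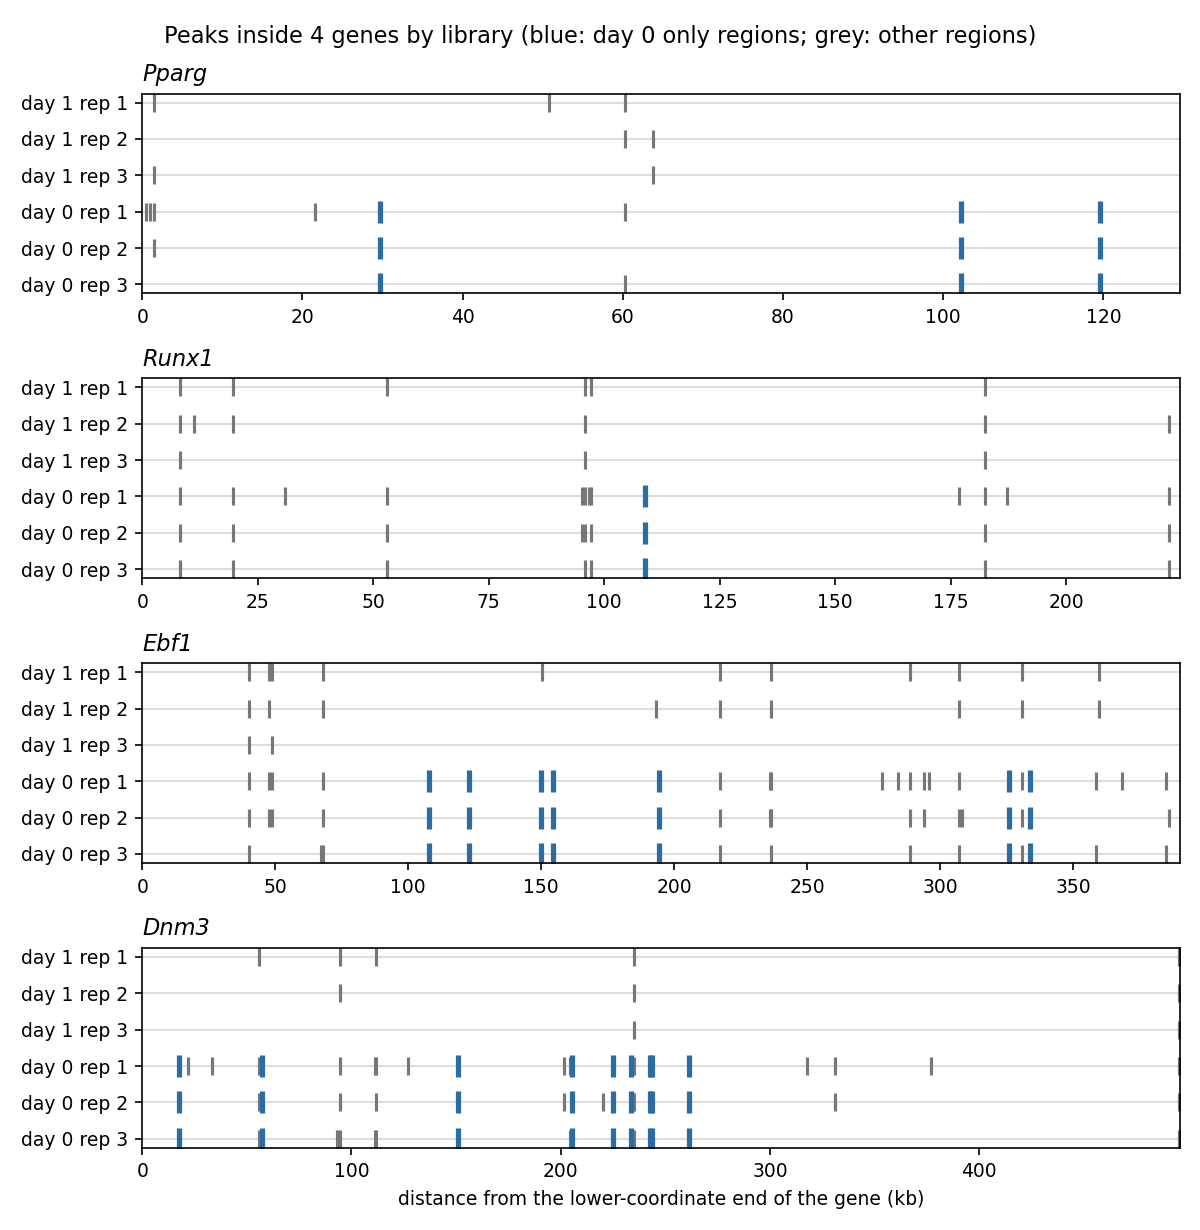
Peaks in each library inside Pparg, Runx1, Ebf1 and Dnm3, by distance in kb from the lower-coordinate end of the gene, with day 1 libraries above day 0 libraries; blue ticks are day 0 only regions and grey ticks other regions, each drawn at the region's midpoint. Pparg shows 3, Runx1 1, Ebf1 7 and Dnm3 9 blue positions, all in the 3 day 0 rows alone.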

How the data were processed

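ATAC-seq peak lists of 6 mouse libraries were used, 3 at day 1 and 3 at day 0. Peaks were called per library with MACS2 2.2.7.1 on paired-end fragments without a control, at a q cutoff of 0.05, with a 10000 bp local background and at most 1 fragment per position, per the file headers. The mm10 build comes from the submitters' processing notes. The pileup signal is a whole number of fragments at the summit, deposited without scaling to library size. The −log10 p and q columns and the fold enrichment ratio are the authors' own, deposited per peak within a library, so they vary with depth, and were used to rank, filter or describe peaks within a list. Widths and fragment totals are as per the file headers.

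From these, regions were merged and placed on 21883 coding genes of the RefSeq table (GRCm38.p6) with Python 3.11.15, numpy 2.4.6, pandas 2.3.3 and scipy 1.17.1. The table gives start and end without exons. The code of the rule was checked on simulated lists without missed calls or depth differences, where all 500 of 500 planted regions were recovered with 0 false ones. That gives no error rate for the real lists. Values per library were compared by two-sided exact permutation. Shares have exact Clopper-Pearson 95% intervals, which cover counting error only. The members and gene lists were chosen with earlier results of these data known. Named genes are the 12 strongest members and the 12 genes with most members, up to 4 genes per list, fixed regulators and the regions at the 1 kb limit. Arap1, Rufy3, Msh4, Sh3kbp1, Smim14, Zfp959, Fgd4, Dnm3, Fndc3b and Acaca fall outside it and were picked with their values known. Start windows were at hand for part of the genes, and shares at starts use regions whose host gene has one. Alternatives were equal lists, stricter q, overlap and distance limits, other day 0 minimums and each library left out.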

Additional observations from a re-analysis of the deposited data

How the results depend on the processing

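The number of members depended on list length and on the day 0 minimum. It was 1054 in equal lists, 1836 in equal lists without day 1 replicate 3, and 10098 when 2 of 3 day 0 lists sufficed, against 5836. Host genes numbered 884 and 1433 in those equal lists, against 3342. In equal lists a member may hold a weaker day 1 peak. Members were 49.4% of day 0 only regions in equal lists, 45.3% beyond 2.5 kb and 41.9% beyond 5 kb from gene ends. Their median distance to an end was 28.7 kb in equal lists, 27.0 kb without day 1 replicate 3, 27.7 and 31.1 kb beyond 2.5 and 5 kb, and 23.8 kb with 2 of 3 day 0 lists. Leaving out each library gave 5962 to 8162 members in 3393 to 4223 genes, shares of 47.2% to 48.3%, medians of 24.1 to 24.8 kb, differences in the share of peaks inside genes of -9.26 to -6.00 points and at starts of 5.72 to 8.76 points. Held-out shares ranged from 1.86% to 15.5% (day 1) and 71.9% to 94.4% (day 0). A stricter q, an overlap of 50% of the shorter peak, summit positions and whole regions inside the gene kept the count between 5301 and 5847.

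The difference in the share of peaks inside genes turned to 1.03 points without the members' own peaks and to 4.40 points in equal lists without them, and that in the share at starts to -0.999 points in equal lists without them. This setting was added after the data were seen and by construction removes day 0 peaks alone. Scaled day 0 heights reached the called height in 1099 (median height, fragment totals), 2529 and 558 members (median ratio), against 4545. With a replicate block, and the members' own peaks included, the difference was -8.04 points (exact sign-flip p = 0.25, the smallest possible) and at starts 7.58 points. Deviations of log2 height over 9136 regions correlated at -0.036, 0.054 and 0.008 between libraries that share a replicate number. Pairs with different numbers gave -0.074 to 0.064. No pairing was thus seen in the heights, which does not show that the libraries were unpaired. Motif searches in the regions themselves needed genome sequence and were not run. Day 1 was the shallower day, and the part of depth in the absence calls was not tested.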
